A study of Mus musculus with 7 samples.

Results

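Myh6, Myh7, Myh7b, Nppa, Nppb, Acta1, Ankrd1 and Xirp2 are cardiomyocyte genes used as readouts of the myosin switch and of haemodynamic stress. The 8 genes were found in the deposited tables by matching each Ensembl identifier to its mouse symbol. They were chosen as a set with earlier results of these data known. The tables list 22027 genes, and all 8 were among the 12674 with enough counts to be tested. The study profiled left ventricular messenger RNA of C57BL/6J mice aged 12 months. There were 4 libraries labelled G3, telomerase-deficient mice, and 3 labelled G3 PGC1aOE, G3 mice in which PGC1alpha was overexpressed. PGC1alpha, encoded by Ppargc1a, is a coactivator of genes of mitochondrial energy metabolism, and the series title places it in the context of heart function and longevity. Both groups share the telomerase deficiency, and no mouse with intact telomerase was analysed here. How PGC1alpha was overexpressed, and in which cells, is not given in the sources used here, nor whether each library is from a separate animal or litter. All p-values therefore speak only of the spread among these libraries, which may be technical. Libraries are named by group and replicate number, as in G3 1 or G3 PGC1aOE 1.

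As background, the mouse ventricle makes mainly Myh7, the slow beta-myosin heavy chain, before birth and replaces it after birth with Myh6, the fast alpha-myosin heavy chain. Pressure overload, hypothyroidism and heart failure bring part of the fetal pattern back. With it come the natriuretic peptides encoded by Nppa (atrial natriuretic peptide) and Nppb (brain natriuretic peptide), which are secreted when the wall is stretched and act on the kidney and vessels through receptors that make cyclic GMP, and the skeletal alpha-actin Acta1. Ankrd1 encodes a stretch-responsive ankyrin repeat protein that binds titin and also acts in the nucleus, and Xirp2 an actin-binding protein of the intercalated disc and Z-disc. Myh7b is an ancient myosin heavy chain of slow muscle.

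Each of the 3 myosin heavy chain genes carries a microRNA in an intron. Their mature sequences, printed because they link the myosin genes at the level of sequence, are from RefSeq (GRCm38.p6), with bases 2 to 8, the seed, in capitals.
mmu-miR-208a-3p, in Myh6, chr14:54949072-54949093, minus strand: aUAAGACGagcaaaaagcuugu
mmu-miR-208b-3p, in Myh7, chr14:54975710-54975731, minus strand: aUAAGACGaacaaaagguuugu
mmu-miR-499-5p, in Myh7b, chr2:155622893-155622913, plus strand: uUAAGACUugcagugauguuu
The Myh6 and Myh7 microRNAs share the seed UAAGACG, which no other mature mouse microRNA in the RefSeq table has. The Myh7b microRNA has the seed UAAGACU, and its seed shares the first 6 bases with theirs. These microRNAs have no row in the count table, and their levels were not analysed here.

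The promoters of 6 of the genes are shown because each holds an M-CAT element or TGATAA, a form of the GATA element. Cardiac regulators are known to bind these letters, which the windows of Myh7b and Xirp2 lack. Each sequence is the 250 bases before the RefSeq transcript start (GRCm38.p6), read on the gene's own strand. Capitals mark the M-CAT element (CATTCC, or GGAATG on the other strand), which TEAD factors bind, and TGATAA on either strand. They also mark the CArG box, which serum response factor binds. Other forms of the GATA element were not searched, so a window without TGATAA may still hold another form. For Myh7, which has more than 1 listed start, the most upstream window is given.
Myh6, chr14:54966608-54966857, minus strand: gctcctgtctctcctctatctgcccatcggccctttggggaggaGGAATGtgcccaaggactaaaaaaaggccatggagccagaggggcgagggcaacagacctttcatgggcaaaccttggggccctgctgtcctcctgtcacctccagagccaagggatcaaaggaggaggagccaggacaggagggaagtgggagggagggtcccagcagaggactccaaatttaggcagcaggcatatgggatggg
Myh7, chr14:54994627-54994876, minus strand: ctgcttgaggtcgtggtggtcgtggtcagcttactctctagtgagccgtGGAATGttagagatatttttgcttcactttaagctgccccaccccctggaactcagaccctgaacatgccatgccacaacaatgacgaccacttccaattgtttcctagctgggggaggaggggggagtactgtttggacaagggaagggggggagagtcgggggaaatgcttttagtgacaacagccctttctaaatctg
Nppa, chr4:148000472-148000721, plus strand: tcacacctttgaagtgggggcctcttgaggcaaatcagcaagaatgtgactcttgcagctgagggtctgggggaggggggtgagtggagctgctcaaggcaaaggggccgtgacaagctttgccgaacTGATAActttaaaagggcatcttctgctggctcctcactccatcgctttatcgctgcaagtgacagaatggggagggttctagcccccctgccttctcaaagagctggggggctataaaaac
Nppb, chr4:147985650-147985899, plus strand: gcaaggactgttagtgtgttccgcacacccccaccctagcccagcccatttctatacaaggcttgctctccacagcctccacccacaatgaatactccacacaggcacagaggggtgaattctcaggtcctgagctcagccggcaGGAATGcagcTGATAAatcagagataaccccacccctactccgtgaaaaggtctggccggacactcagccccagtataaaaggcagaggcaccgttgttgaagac
Acta1, chr8:123894776-123895025, minus strand: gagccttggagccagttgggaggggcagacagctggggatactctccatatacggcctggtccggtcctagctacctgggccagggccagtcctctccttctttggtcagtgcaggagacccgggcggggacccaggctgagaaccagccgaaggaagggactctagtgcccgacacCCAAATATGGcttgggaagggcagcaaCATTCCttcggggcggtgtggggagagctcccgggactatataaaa
Ankrd1, chr19:36119845-36120094, minus strand: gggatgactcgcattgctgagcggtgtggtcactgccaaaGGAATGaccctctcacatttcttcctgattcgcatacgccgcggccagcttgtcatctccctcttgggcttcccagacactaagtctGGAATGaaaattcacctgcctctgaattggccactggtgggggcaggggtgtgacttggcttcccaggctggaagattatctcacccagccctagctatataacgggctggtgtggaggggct
M-CAT letters stood in the window of 5 of the 8 genes, Myh6, Myh7, Nppb, Acta1 and Ankrd1, and in 12.6% of 32851 promoter windows of the same length. Myh7 counts here through its most upstream window only, since the window of its other listed start, chr14:54994550-54994799, holds no M-CAT letters, and by that window the tally is 4 of 8. TGATAA stood in Nppa and Nppb, and in 7.94% of windows. TATAAA, the TATA box, stood in Nppa, Nppb and Acta1, and in 12.4% of windows. The CArG box stood in Acta1 alone among the 8, and in 1.47% of windows. A MEF2 element stood in Xirp2 alone among the 8, and in 0.508% of windows. None of the searched elements overlapped another in these windows. A match describes the letters only.

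Total counts ran from 10106705 to 16056740 per library. Ppargc1a, the gene named by the label, stood at 94.7, 56.8, 118 and 86.7 CPM (counts scaled to a common library total, adjusted by TMM) in G3 1 to 4 and at 103, 43.9 and 58.1 CPM in G3 PGC1aOE 1 to 3. By edgeR its log2 fold change was −0.38 (SE 0.34, adjusted p = 0.847). The message thus did not exceed that of G3, and directions given for the other group rest on its label. The telomerase gene Tert had at most 1 count in any library. Of the fits that each left out 1 library, that without G3 PGC1aOE 1 changed most. It had 2464 of 12922 genes at an unadjusted edgeR p under 0.05, against 548 of 12674 with all libraries. G3 PGC1aOE 1 is also the only library of its group whose sample description holds the code text G2. The library and the code cannot be told apart here. The 10 ventricular cardiomyocyte markers summed to between 48401 and 65122 CPM in G3 and between 48023 and 80278 CPM in G3 PGC1aOE with none at 0 in every library. Skeletal muscle markers summed to at most 90.0 CPM.

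None of the 8 genes differed between the groups beyond the spread between libraries. Their edgeR adjusted p-values ran from 0.847 to 0.996, and none had an unadjusted p under 0.05. Over all 12674 tested genes, 0% passed an adjusted p of 0.05 and 4.32% had an unadjusted p under 0.05. The groups overlapped for all 8 genes, where 4.58% of tested genes had groups that did not overlap. Log2 fold changes, taken as G3 PGC1aOE minus G3, were positive for 3 of the 8 and negative for 5, with a median of −0.06 beside 0.01 over all tested genes. Libraries of the same group, by contrast, differed widely. In whole-tissue RNA, a lower level may reflect fewer cells of a type or less message per cell, which cannot be told apart.

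**Figure D1:**
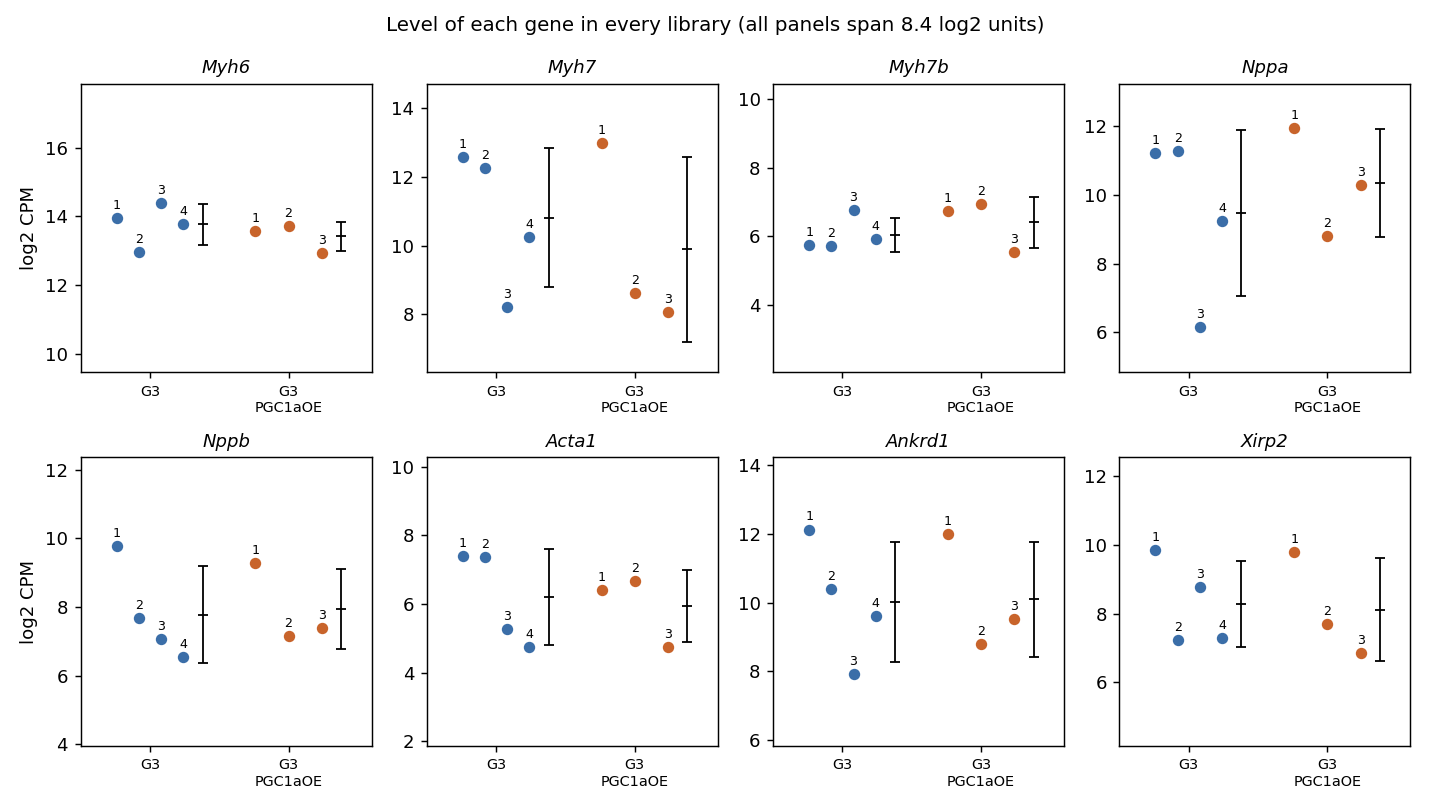
Level of each of the 8 genes as log2 CPM in every library, with the library number above each point, the groups on the horizontal axis and the group mean ± SD as a bar at the right of each group (n = 4 and n = 3). The groups overlap in every panel, and the points of Myh7 and Nppa spread over a wider range than those of Myh6 and Myh7b.

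Myh6 (ENSMUSG00000040752), the alpha-myosin heavy chain of the adult mouse ventricle, was abundant in every library. Its level was 15719, 8033, 21670 and 14024 CPM in G3 1 to 4 and 12294, 13594 and 7817 CPM in G3 PGC1aOE 1 to 3. G3 3 was highest and G3 PGC1aOE 3 lowest, G3 2 was close to the lowest, and the groups overlapped. The means were 14861 ± 5610 CPM (SD, n = 4) and 11235 ± 3030 CPM (SD, n = 3). edgeR gave a log2 fold change of −0.40 (SE 0.38, 95% interval −1.25 to 0.44, adjusted p = 0.847). The highest library held 2.77-fold the CPM of the lowest.

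Myh7 (ENSMUSG00000053093), the beta-myosin heavy chain, was abundant in some hearts of each group and low in others. It measured 6071, 4906, 293 and 1206 CPM in G3 1 to 4. In G3 PGC1aOE 1 to 3 it measured 8072, 395 and 265 CPM. G3 1, G3 2 and G3 PGC1aOE 1 were high, G3 4 was intermediate, and G3 3, G3 PGC1aOE 2 and G3 PGC1aOE 3 were low, so that the highest and the lowest library, 30.4-fold apart, carried the same group label. These values rest on between 3267 and 103973 counts. The group means were 3119 ± 2802 CPM (SD, n = 4) and 2911 ± 4470 CPM (SD, n = 3), with SDs close to or above the means. In the edgeR fit the log2 fold change came to −0.10 (SE 1.40, 95% interval −3.41 to 3.21, adjusted p = 0.988), an interval that covers changes of several-fold either way. It moved to −3.25 when G3 PGC1aOE 1 was left out and to 0.45 when G3 1 was. Fits to the logarithm of each library's value gave a larger difference. It was −1.84 by limma voom, which here also weighted each library by its quality, and −1.04 by limma on log2(FPKM + 1) without such weights. With the code in the sample descriptions as a covariate, edgeR gave −1.16. The adjusted p-values of these fits, from the tools named, ran from 0.677 to 0.913. The mean log2 CPM was 10.82 in G3 and 9.89 in the other group. The 3 libraries highest in Myh7 had the lowest shares of counts from mitochondrially encoded genes, 24.7% in G3 1, 26.0% in G3 2 and 27.7% in G3 PGC1aOE 1, against 31.4% to 42.4% in the others. With those genes removed from the totals the log2 fold change was −0.08.

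Myh7b (ENSMUSG00000074652), the slow-muscle myosin heavy chain, has a longest coding transcript of 6163 bp, close to those of Myh6 and Myh7, so its CPM can be read beside theirs, and it lay far lower. It stood at 53.7, 52.4, 109 and 60.4 CPM in G3 1 to 4 and at 106, 123 and 46.7 CPM in G3 PGC1aOE 1 to 3. G3 3, G3 PGC1aOE 1 and G3 PGC1aOE 2 were high and the other libraries low, an order unlike that of Myh7. The means were 68.8 ± 26.9 CPM (SD, n = 4) and 91.7 ± 39.8 CPM (SD, n = 3). edgeR gave a log2 fold change of 0.41 (SE 0.36, 95% interval −0.39 to 1.22, adjusted p = 0.847).

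The balance of the 2 main ventricular myosins was read within each library, where scaling between libraries plays no part. Myh7 made up 27.9% of the counts of Myh6 and Myh7 together in G3 1 (95% Wilson interval 27.7% to 28.04%), 37.9% in G3 2 (37.7% to 38.1%), 1.33% in G3 3 (1.29% to 1.38%) and 7.92% in G3 4 (7.80% to 8.04%). In the other group the share was 39.6% in G3 PGC1aOE 1 (39.4% to 39.8%), 2.82% in G3 PGC1aOE 2 (2.75% to 2.90%) and 3.28% in G3 PGC1aOE 3 (3.18% to 3.39%). The intervals cover counting error only, and the differences between libraries are far wider than they are. G3 1, G3 2 and G3 PGC1aOE 1 had a large Myh7 share and the other 4 libraries a small one, and the groups overlapped.

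**Figure D2:**
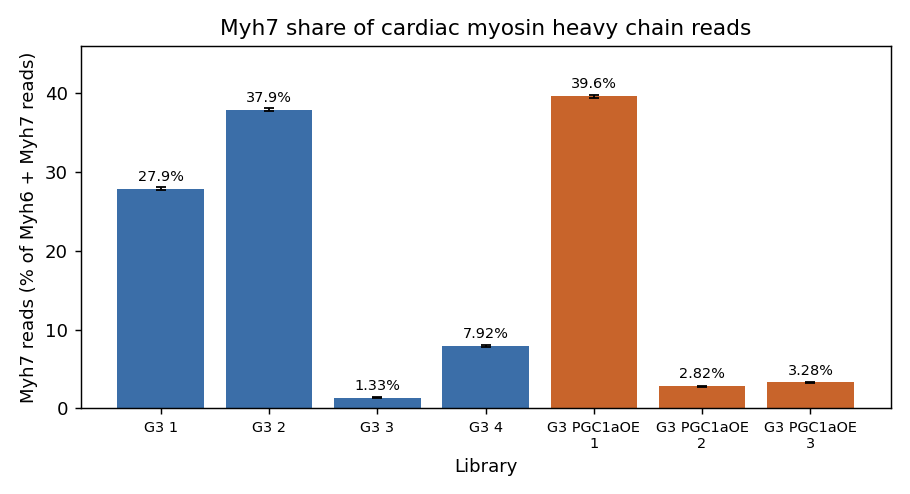
Myh7 counts as a percentage of Myh6 plus Myh7 counts in each library, with bars in one colour per group and error bars for the 95% Wilson interval, which covers counting error only. The share is 27.9%, 37.9% and 39.6% in G3 1, G3 2 and G3 PGC1aOE 1 and between 1.33% and 7.92% in the other libraries.

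Per transcript length (6230 bp for Myh7 and 6113 bp for Myh6, the longest coding transcripts of GENCODE vM21), the log2 ratio of Myh7 to Myh6 was −1.40, −0.74, −6.24 and −3.57 in G3 1 to 4. It was −0.63, −5.13 and −4.91 in G3 PGC1aOE 1 to 3. Myh6 exceeded Myh7 in every library, and the ratio itself spanned 48.6-fold. The group means of the log2 ratio were −2.99 ± 2.48 (SD, n = 4) and −3.56 ± 2.54 (SD, n = 3), a difference of −0.57 (exact permutation test, 2-sided, p = 0.771, and 0.886 after Benjamini-Hochberg adjustment over 3 ratios). The smallest p that this design allows is 0.0286. The difference was −2.04 when G3 PGC1aOE 1 was left out and 0.21 when G3 PGC1aOE 2 was. Myh6 and Myh7 are near-identical paralogs, and how reads matching both were assigned is not given in the sources used here, so the absolute ratio is uncertain.

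The deposited FPKM values give a smaller Myh7 share for a reason of arithmetic. They equal counts divided by total and by a gene length of 1554 bp for Myh6 and 4129 bp for Myh7, which are 3.93-fold and 1.51-fold shorter than the transcripts used above. By FPKM the Myh7 share was 12.7%, 18.7%, 0.506% and 3.14% in G3 1 to 4, and in the other group it was 19.8%, 1.08% and 1.26%. The order of libraries is the same by either length. For genes whose lengths in the FPKM table match the transcript closely, the levels per length ran from 80.9 to 5044 FPKM for Nppa, from 113 to 1213 FPKM for Nppb, from 15.6 to 129.6 FPKM for Acta1 and from 8.22 to 83.6 FPKM for Xirp2.

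Nppa (ENSMUSG00000041616), the precursor of atrial natriuretic peptide, had the widest range of the 8 genes, 55.7-fold between the highest and the lowest library. It measured 2400, 2477, 70.4 and 599 CPM in G3 1 to 4. In G3 PGC1aOE 1 to 3 it measured 3921, 448 and 1246 CPM. G3 PGC1aOE 1 was highest, G3 1 and G3 2 followed, and G3 3 was far below every other library. The means were 1387 ± 1234 CPM (SD, n = 4) and 1871 ± 1819 CPM (SD, n = 3). In the edgeR fit the log2 fold change came to 0.43 (SE 1.11, 95% interval −2.14 to 3.00, adjusted p = 0.937). It was −0.72 without G3 PGC1aOE 1, 0.02 without G3 3 and 0.90 without G3 PGC1aOE 2.

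Nppa is also a gene of atrial muscle, and atrial marker genes were present in some libraries. Of the 9 atrial markers, which summed to between 405 and 1284 CPM in G3 and between 367 and 1667 CPM in G3 PGC1aOE, none was at 0 in every library. The order in which they are described was chosen after their values were seen. Myl7, the atrial light chain of myosin, stood at 113, 141, 0.72 and 0.45 CPM in G3 1 to 4, at 0 counts in G3 PGC1aOE 1, and at 7.86 and 420 CPM in G3 PGC1aOE 2 and 3. The 0 counts allow up to 0.233 CPM (3 counts, counting error only). Sln, the atrial calcium pump inhibitor sarcolipin, and Myl4, the atrial essential light chain, were likewise highest in G3 PGC1aOE 3, at 189 and 433 CPM, and stood at 0.08 and 2.33 CPM in G3 PGC1aOE 1. Bmp10, at 42.2 CPM, Stard10, at 60.2 CPM, and Dkk3 were highest in G3 PGC1aOE 3 too. Dkk3, a secreted protein of the Dickkopf family, stood at 52.9, 71.8, 1.97 and 1.88 CPM in G3 1 to 4 and at 19.2, 35.8 and 80.8 CPM in G3 PGC1aOE 1 to 3. The remaining markers were highest elsewhere, Kcna5 in G3 PGC1aOE 2 at 39.8 CPM and Nr2f2 in G3 2 at 16.8 CPM. Pam, the peptide-amidating enzyme of atrial granules, was highest in G3 1 at 950 CPM, followed by G3 PGC1aOE 1 at 680 CPM, with 405 CPM in G3 PGC1aOE 3. The log2 fold change of Nppa was 0.65 when G3 PGC1aOE 3 was left out. The part of atrial tissue in the Nppa level of any library was not tested.

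**Figure D3:**
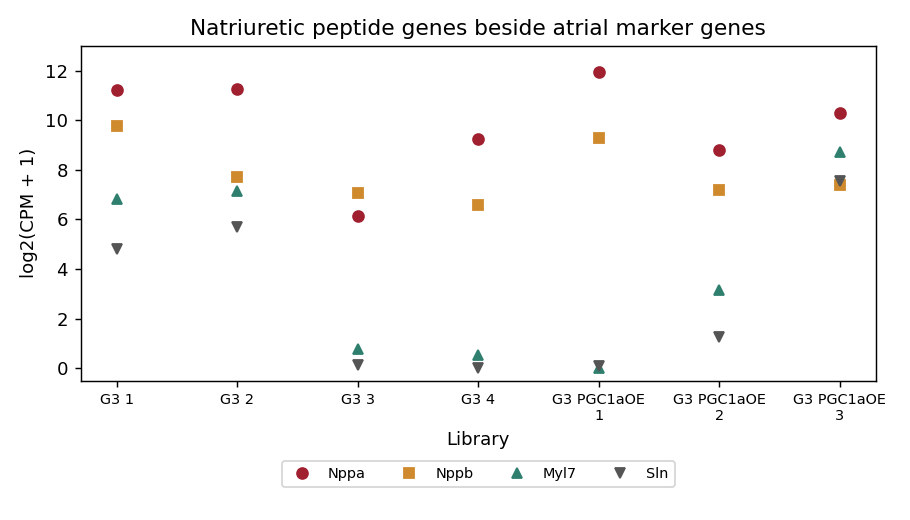
Levels of Nppa and Nppb beside the atrial markers Myl7 and Sln in each library, as log2(CPM + 1). Nppa is highest in G3 PGC1aOE 1, where Myl7 is at 0 counts, and Myl7 is highest in G3 PGC1aOE 3 at 420 CPM.

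Nppb (ENSMUSG00000029019), the precursor of brain natriuretic peptide, was high in fewer libraries. Its level was 873, 207, 135 and 93.7 CPM in G3 1 to 4 and 619.5, 144 and 167 CPM in G3 PGC1aOE 1 to 3. G3 1 and G3 PGC1aOE 1 stood above all others, and G3 2, high in Nppa and Myh7, was near the low libraries. The means were 327 ± 367 CPM (SD, n = 4) and 310.2 ± 268 CPM (SD, n = 3). edgeR gave a log2 fold change of −0.08 (SE 0.86, 95% interval −2.05 to 1.90, adjusted p = 0.985). It was −1.08 without G3 PGC1aOE 1 and 1.10 without G3 1. Per length, the log2 ratio of Nppb to Nppa was −1.31, −3.43, 1.08 and −2.53 in G3 1 to 4. The values in the other group were −2.51, −1.49 and −2.75. Nppb exceeded Nppa in G3 3 only, the library with the least Nppa. The group difference was −0.70 (exact permutation test, 2-sided, p = 0.686, adjusted 0.886), and 0.17 without G3 3.

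Of the genes around the natriuretic peptides (their processing enzymes, receptors and cyclic GMP effectors), 11 were tested and none passed edgeR's adjusted threshold. Fold changes on the log2 scale were positive for 7 and negative for 4, with a median of 0.14. Over all tested genes, 4.32% had an unadjusted edgeR p under 0.05, and of these 11 genes 1 did. That gene was Furin, a convertase that cleaves precursor proteins including that of brain natriuretic peptide. It measured 113 ± 31.6 CPM in G3 (SD, n = 4) and 68.0 ± 4.16 CPM in G3 PGC1aOE (SD, n = 3) for a log2 difference of −0.73 (edgeR, adjusted p = 0.847). Corin, the protease that activates atrial natriuretic peptide, measured 257 ± 12.8 CPM (SD, n = 4) and 174 ± 63.8 CPM (SD, n = 3) for a log2 difference of −0.57 (edgeR, adjusted p = 0.847). Pde9a, a cyclic GMP phosphodiesterase, differed by 0.64 on the log2 scale with the same adjusted p.

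Acta1 (ENSMUSG00000031972), the skeletal alpha-actin, stood at 169, 165, 38.5 and 26.5 CPM in G3 1 to 4 and at 84.2, 101 and 26.4 CPM in G3 PGC1aOE 1 to 3. G3 1 and G3 2 were highest, and G3 4 and G3 PGC1aOE 3 lowest at nearly the same level. The means were 99.8 ± 77.9 CPM (SD, n = 4) and 70.7 ± 39.3 CPM (SD, n = 3). In the edgeR fit the log2 fold change came to −0.50 (SE 0.73, 95% interval −2.18 to 1.19, adjusted p = 0.888). Skeletal muscle markers, named here after their values were seen, did not all behave alike. The fast skeletal myosins Myh1, Myh2 and Myh4 had at most 4 counts in any library and Tnnc2, the fast skeletal troponin C, had 0. Mybpc2, the fast-type myosin binding protein C, stood at 76.5, 16.6, 5.38 and 4.81 CPM in G3 1 to 4 and at 54.3, 15.1 and 5.52 CPM in G3 PGC1aOE 1 to 3, higher in the same 4 libraries as Acta1. Myl1, a fast skeletal light chain, ran the other way, from 6.75 CPM in G3 PGC1aOE 1 to 29.1 CPM in G3 3. Whether these levels have a source in common was not tested.

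Acta1 was a small part of the sarcomeric actin message next to Actc1, the cardiac alpha-actin. Acta1 made up 4.72%, 3.31%, 0.489% and 0.295% of the counts of the pair in G3 1 to 4, and in the other group 1.88%, 1.75% and 0.327%. Actc1 itself was lowest in G3 1 at 3420 CPM and highest in G3 4 at 8956 CPM. Actc1 enters the share, and libraries with a larger share tended to have less of it. Per length, the log2 ratio differed by −0.27 between groups (exact permutation test, 2-sided, p = 0.886, adjusted 0.886), and by 0.56 without G3 PGC1aOE 3. Reads shared by these near-identical actin genes make the absolute share uncertain.

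Ankrd1 (ENSMUSG00000024803), the stretch-responsive titin partner, was highest in 1 library of each group. Its level was 4498, 1349, 245 and 791 CPM in G3 1 to 4 and 4081, 445 and 740 CPM in G3 PGC1aOE 1 to 3. G3 1 and G3 PGC1aOE 1 were highest, G3 2 came next, and G3 3 was lowest, with 18.4-fold between the ends. The means were 1721 ± 1905 CPM (SD, n = 4) and 1756 ± 2019 CPM (SD, n = 3). edgeR gave a log2 fold change of 0.03 (SE 1.05, 95% interval −2.41 to 2.46, adjusted p = 0.996). It was −1.54 without G3 PGC1aOE 1 and 1.14 without G3 1.

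Xirp2 (ENSMUSG00000027022), the actin-binding repeat protein, measured 922, 151, 440 and 157 CPM in G3 1 to 4 and 883, 208 and 116 CPM in G3 PGC1aOE 1 to 3. G3 1 and G3 PGC1aOE 1 were highest and G3 3 came next, whereas G3 3 was the lowest library for Nppa and Ankrd1. The means were 418 ± 363 CPM (SD, n = 4) and 402 ± 418 CPM (SD, n = 3). In the edgeR fit the log2 fold change came to −0.05 (SE 0.84, 95% interval −1.98 to 1.88, adjusted p = 0.990), and it was −1.37 without G3 PGC1aOE 1 and 0.69 without G3 1.

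**Figure D4:**
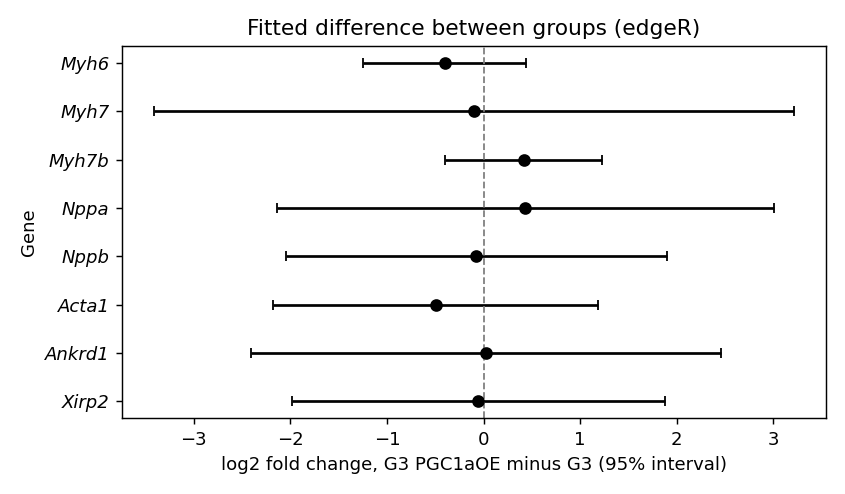
Fitted log2 fold change of each gene, G3 PGC1aOE minus G3, from edgeR, with its 95% interval as a bar and a dashed line at no difference. All 8 intervals cross 0, and the widest is that of Myh7, from −3.41 to 3.21.

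The sample descriptions carry a code. For the libraries G3 1, G3 3 and also G3 PGC1aOE 1 its text reads G2, and for the remaining 4 it reads G3, although every sample is labelled G3 by genotype. The code also has letters: C in G3 1 and G3 2, none in G3 3, P in G3 4 and PC in every G3 PGC1aOE library. What text and letters stand for is not given in the sources used here. Within the G3 group, Myh7, Nppa, Nppb, Acta1 and Ankrd1 were higher in both libraries lettered C than in the others. Myh6, Myh7b and Xirp2 were not. Among those lettered PC, Myh7 ran from 265 to 8072 CPM. The letters were compared after the values were seen, and their part was not tested. The share of all tested genes higher in both libraries lettered C was not computed. This order is therefore not shown to be particular to these genes. Xirp2 ran from 440 to 922 CPM in the 3 libraries coded G2 and from 116 to 208 CPM in those coded G3. It was the only member of the 8 whose code groups did not overlap, a comparison made after its values were seen. Over all tested genes, 11.4% had every library coded G2 above every library coded G3, so 1 of 8 is near the background. With the G2 or G3 text as a covariate the SE of the Xirp2 fold change was 0.30 in place of 0.84, and the log2 fold change was 0.20.

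Within groups, 6 of the 8 genes varied more than nearly all other genes. The SD of log2 CPM about the group means was 2.32 for Myh7, 2.12 for Nppa, 1.72 for Ankrd1, 1.36 for Xirp2, 1.32 for Nppb and 1.27 for Acta1. Among the 3622 genes averaging log2 CPM 5 or more, whose median SD was 0.34, these stood at percentiles from 99.3 for Acta1 to 99.9 for Myh7 and Nppa. The adult isoform Myh6, with an SD of 0.53, stood at percentile 84.3, and Myh7b, with 0.61, at percentile 89.9. The median over all 8 was 1.34, beside 0.36 over all tested genes. This is a description of 7 libraries, with no test.

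**Figure D5:**
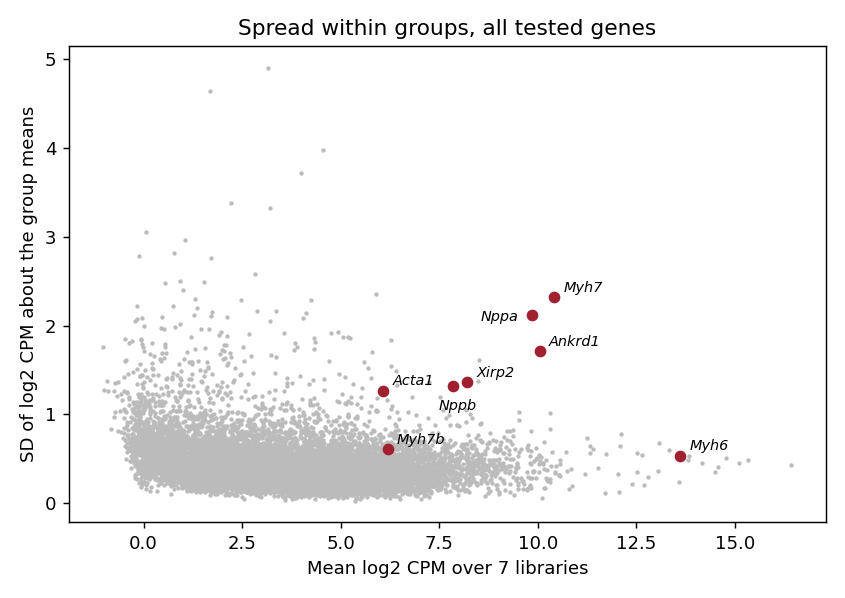
SD of log2 CPM about the group means against mean log2 CPM over the 7 libraries, for all tested genes in grey and the 8 genes in red. Myh7, Nppa and Ankrd1 lie above nearly all other genes averaging log2 CPM 5 or more, with SDs of 2.32, 2.12 and 1.72, whereas Myh6 and Myh7b lie at 0.53 and 0.61.

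The genes with wide ranges tended to be high in the same libraries, but no pair passed correction. Over the 28 pairs, Pearson's r of log2 CPM across the 7 libraries had a median of 0.52, and 20 were positive. The strongest was Myh7 with Ankrd1, with r = 0.90 (exact permutation p = 0.00516, adjusted over 28 pairs 0.0722) and Spearman's rho = 0.86 (exact permutation p = 0.0238, adjusted 0.333). Without the 2 libraries farthest from the median of Myh7, r was 0.78. Nppa with Ankrd1 gave r = 0.89 (exact permutation p = 0.00278, adjusted 0.0722) and rho = 0.86 (exact permutation p = 0.0238, adjusted 0.333), and r = 0.81 without the 2 farthest libraries. Nppb with Ankrd1 gave r = 0.88 (exact permutation p = 0.0137, adjusted 0.128) and rho = 0.79 (exact permutation p = 0.0480, adjusted 0.336), but r = 0.35 without G3 1 and G3 PGC1aOE 1, so this relation rests on those libraries. That of Nppb with Xirp2, r = 0.80 (exact permutation p = 0.0323, adjusted 0.206) and rho = 0.43 (exact permutation p = 0.354, adjusted 0.550), rests on them too, since r was −0.22 without them. Among the 6 genes other than Myh6 and Myh7b, set aside after the values were seen, all 15 pairs were positive, and 11 were positive without the farthest libraries. The pairs that turned negative all held Xirp2, at r = −0.85 with Ankrd1, −0.34 with Myh7, −0.22 with Nppb and −0.14 with Acta1. Xirp2 with Nppa stayed positive, at 0.38. The share of positive pairs among other genes was not computed, so the counts of positive pairs are not shown to be particular to the 6. Between Myh6 and Myh7, r was −0.14 (exact permutation p = 0.753, adjusted 0.878) and rho was 0.07 (exact permutation p = 0.906, adjusted 0.940).

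The genes whose pattern was most like that of Myh7, among the 10146 averaging log2 CPM 2 or more, were Usp6nl (r = 0.98), Tent5b (0.97), Ing5 (0.97), Ahnak (0.96) and Eef2k (0.96), and 67 genes had an r of at least 0.9. In that ranking Ankrd1 stood at place 71, Nppa at 426, Nppb at 546, Acta1 at 943 and Xirp2 at 1792. Myh6 stood at 6080 and Myh7b at 6411. Tent5b, a noncanonical poly(A) polymerase family gene, ran from 1.79 CPM in G3 3 to 22.9 CPM in G3 PGC1aOE 1. Ahnak, a large scaffold protein, spanned a narrower range, from 386 CPM in G3 PGC1aOE 3 to 846 CPM in G3 1. For Nppa the nearest were Fyb (0.97), Socs3 (0.96), Stc1 (0.96), Slc10a6 (0.95) and App (0.95). Socs3, an inhibitor of cytokine signalling, ran from 7.62 CPM in G3 3 to 17.0 CPM in G3 1. For Ankrd1 they were Anxa4 (0.98), Sorl1 (0.98), Kdm3a (0.97), Ifit2 (0.97) and Psat1 (0.97). Psat1, an enzyme of serine synthesis, ran from 1.97 CPM in G3 PGC1aOE 2 to 11.3 CPM in G3 1. These likenesses describe 7 libraries that differ also in total and in mitochondrial share.

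The other genes of the contractile and stress programme were read from lists by role, and none of their members passed edgeR's adjusted threshold. Of 19 sarcomere genes, 11 had a positive and 8 a negative log2 fold change, with a median of 0.08, and none had an unadjusted p under 0.05. The 3 of smallest p were Tnnt1, the slow skeletal troponin T, at 0.73, Mylk3, the cardiac myosin light chain kinase, at −0.57, and Myl2, the ventricular regulatory light chain, at 0.73 (edgeR, adjusted p = 0.847 each). Of 19 partners at the Z-disc and intercalated disc, 4 had a positive and 15 a negative log2 fold change, with a median of −0.32. Over all 12674 tested genes, 6456 were positive, 6218 were negative and 4.32% had an unadjusted edgeR p under 0.05. Among the 3622 genes averaging log2 CPM 5 or more, 1467 were positive and 2155 negative. Cmya5, a titin-associated protein of the costamere, was the only one of the 19 partners with an unadjusted p under 0.05. It measured 645 ± 134 CPM in G3 (SD, n = 4) and 343 ± 164 CPM in G3 PGC1aOE (SD, n = 3) for a log2 difference of −0.91 (edgeR, adjusted p = 0.847). Xirp1, the paralog of Xirp2, stood at −0.53 and Mypn at −0.36.

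Of 20 transcription factors of the fetal gene programme, 1 had a positive and 19 a negative log2 fold change, with a median of −0.39. Among the 3622 genes averaging log2 CPM 5 or more, 2155 were negative and the median was −0.08. The 3 factors of smallest p were Srf, the factor of the CArG box, at −0.52, Rest, a repressor of fetal cardiac genes, at −0.50, and Tbx5, a cardiac T-box factor, at −0.69 (edgeR, adjusted p = 0.847 each). Srf and Rest had an unadjusted edgeR p under 0.05, as had 4.32% of all tested genes. Srf measured 104 ± 16.6 CPM in G3 (SD, n = 4) and 72.7 ± 11.5 CPM in G3 PGC1aOE (SD, n = 3).

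Markers of other cell types were compared between the same groups, and none passed edgeR's adjusted threshold. Over all 12674 tested genes, 6456 had a positive log2 fold change and 4.32% an unadjusted edgeR p under 0.05. Of 8 fibroblast markers, 7 had a positive log2 fold change, with a median of 0.85 and 5 at an unadjusted p under 0.05. Their sum ran from 559 to 1058 CPM in G3 and from 1037 to 1543 CPM in G3 PGC1aOE, so the sums overlapped. Dcn, at 282 to 954 CPM, weighs most in them. The markers were also read singly after their values were seen. Col3a1, Col1a1, Col1a2, Pi16 and Lum were higher in every G3 PGC1aOE library than in any G3 library, whereas Dcn, Pdgfra and Tcf21 overlapped. Over all tested genes, 4.58% had groups that did not overlap, in either direction. Smooth muscle and pericyte markers were positive for 6 of 7 (median 0.67), endothelial markers for 5 of 6 (0.32), leukocyte markers for 5 of 5 tested (0.28) and atrial markers for 7 of 8 tested (0.41). Skeletal muscle markers were positive for 3 of 5 tested (0.51), ventricular cardiomyocyte markers for 6 of 10 (0.02), conduction system markers for 2 of 7 (−0.09) and erythroid markers for 1 of 5 (−0.12). Genes of the mitochondrial genome were positive for 8 of 9 (0.41). The part of these cell types in the values of the transcription factor and Z-disc lists was not tested.

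Other markers of cardiac load varied within groups like the stress genes. The 13 tested had a median within-group SD of 1.33 on the log2 scale, and 8 had a positive and 5 a negative log2 fold change, with a median of 0.25. Gdf15, Lgals3 and Il1rl1 had the smallest p, with log2 fold changes of 0.80, 0.73 and 0.70 (edgeR, adjusted p = 0.847 each). Several of the list rest on few counts per library, Gdf15 on 7 to 39, Il1rl1 on 5 to 17, Spp1 on 2 to 55 and Tnc on 4 to 64. For such genes counting error adds to the within-group SD. Summed over the list, the level was 1511, 815, 334 and 274 CPM in G3 1 to 4 and 1164, 436 and 486 CPM in G3 PGC1aOE 1 to 3. By this sum G3 1 and G3 PGC1aOE 1 were highest and G3 2 came next, as for Ankrd1. The sum weighs abundant genes most, and in G3 1 Ccn2 gave 619, Serpina3n 271 and Postn 173 CPM of it. Those genes, Uchl1 and Rcan1 were highest in G3 1. Spp1, Mt2 and Fhl1 were highest in G3 2, Gdf15, Timp1, Lgals3 and Tnc in G3 PGC1aOE 2 and Il1rl1 in G3 PGC1aOE 3. Ccn2, a matricellular growth factor, singled out after its values were seen, ran from 64.8 CPM in G3 3 to 619 CPM in G3 1, with 403 CPM in G3 PGC1aOE 1.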

How the data were processed

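RNA from the left ventricle of 4 G3 and 3 G3 PGC1aOE samples was sequenced after flash freezing and Trizol extraction, per the labels' protocols. The Illumina TruSeq kit used leaves strand unmarked. CASAVA and Bowtie 0.12.2 were used with mm9, per the submitters' processing notes. Not given in the sources used here are the read counter and how it treated reads that match several genes. The authors deposited whole-number read counts per Ensembl gene, not normalized, and FPKM values, which equal those counts over the library total and 1 gene length per row. Of 22027 identifiers, 21748 matched a symbol.

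Counts were scaled by TMM, filtered with filterByExpr (12674 genes kept) and tested with edgeR 4.0.16 in R 4.3.3 by the quasi-likelihood F-test (2-sided, robust, group only), with Benjamini-Hochberg adjustment over all tested genes at 0.05. CPM was computed on TMM-scaled library totals, with a prior count of 2 for log2 CPM. Ratios within libraries were compared by exact permutation over all 35 groupings, and Wilson intervals were computed with scipy 1.17.1. Total counts of 10106705 to 16056740 leave counting error far below the spread between libraries. The fit was tested on simulated data.

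The 8 genes, the 5 gene lists and the 10 marker lists were chosen with earlier results of these data known. From each of the 5 lists the 3 genes of smallest p are named, for Myh7, Nppa and Ankrd1 the 5 genes of highest r, and single markers and other genes outside this rule are said, where they are named, to be chosen after their values were seen. Alternatives were DESeq2 1.42.0, limma 3.58.1 on counts and on log2(FPKM + 1) or log2(FPKM + 0.1), other scalings and filters, covariates, removal of mitochondrially encoded genes, and leaving out each library. On counts, limma was run as voom with quality weights for each library. Promoter and microRNA sequences are from RefSeq on GRCm38.p6, a later build than that of the files, and no coordinates of the files are used.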

Additional observations from a re-analysis of the deposited data

How the results depend on the processing

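Over 18 alternatives for each of the 8 genes, 118 of 144 log2 fold changes kept their direction, 26 reversed, and none had an adjusted p under 0.05 (the smallest was 0.275, edgeR, for Myh7 without G3 PGC1aOE 1). edgeR called 0 genes over the whole table, with 548 at an unadjusted p under 0.05, DESeq2 called 3, limma voom called 0 and the fit with a replicate block called 6. Whether the replicate numbers pair the samples is not given in the sources used here. Deviations from the group means correlated at 0.46, 0.12 and −0.09 for the numbers 1 to 3. G3 PGC1aOE 1 correlated best with G3 1, and G3 PGC1aOE 2 and G3 PGC1aOE 3 with G3 4. These correlations cannot decide the matter, because deviations from the mean of few libraries are tied to one another. The replicate block reversed Ankrd1, to −0.0582, moved Myh7 to −0.98, Nppa to 0.76, Nppb to −0.24, Acta1 to −0.75 and Xirp2 to −0.48, and left the adjusted p of all 8 genes above 0.05.

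With limma voom and its library quality weights, Myh7b was −0.0073, Nppb 0.0074 and Ankrd1 −0.17. By the same fit, without a change of sign, Myh7 was −1.84, Nppa 0.75, Acta1 −0.83 and Xirp2 −0.61. On log2(FPKM + 1) Nppb was 0.0537 and Ankrd1 −0.0329, and on log2(FPKM + 0.1) they were 0.0544 and −0.0325. With the code text as a covariate Nppb was 0.15, Ankrd1 −0.16 and Xirp2 0.20. The log2 ratio of Myh7 to Myh6 differed by 3.18 within the libraries coded G2 (exact permutation p = 0.667) and by −2.87 within those coded G3 (exact permutation p = 0.333), that of Nppb to Nppa by −2.40 and 0.86 (exact permutation p = 0.667 each), and that of Acta1 to Actc1 by 0.30 and −0.40 (exact permutation p = 1 each). An exact permutation test of 2 libraries against 1, or 2 against 2, cannot reach p = 0.05. The cause of these reversals was not tested.

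Leaving out each library in turn, the log2 fold change ran from −3.25 to 0.45 for Myh7, −0.72 to 0.90 for Nppa, −1.08 to 1.10 for Nppb, −1.54 to 1.14 for Ankrd1 and −1.37 to 0.69 for Xirp2, and kept its sign from −0.61 to −0.18 for Myh6, 0.15 to 0.73 for Myh7b and −0.85 to −0.11 for Acta1. The ratio differences ran from −2.04 to 0.21 for Myh7 to Myh6, −1.33 to 0.17 for Nppb to Nppa and −0.96 to 0.56 for Acta1 to Actc1. The median correlation between the 8 genes was 0.31, in place of 0.52, without the 2 libraries farthest from the median of the gene on the x axis. Each of the 8 genes had at least 353 counts in every library.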
